A study of Mus musculus with 19 samples.

Results

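The 10 genes described here serve the permeability barrier of the epidermis. They are the lipoxygenases Alox12b and Aloxe3, the lipid genes Cers3, Elovl4, Abca12, Cyp4f39 and Pnpla1, the transglutaminases Tgm1 and Tgm3, and the protease Casp14. They were taken by name, and all 10 were found among the 34807 genes of the table, all 10 passing the filter on low counts. RNA was sequenced from 15 mouse skin tumours, labelled squamous cell carcinoma, and from 4 samples of normal skin, in order to compare tumours that start in different cells of the epidermis with each other and with skin. Each tumour arose after a Cre that responds to tamoxifen had turned on activated BRAF, a MAPK pathway kinase. The promoter in front of Cre was that of Ivl, which differentiating keratinocytes use (Ivl tumours, n = 6), or that of Krt5 or Krt14, which basal keratinocytes use (K5 tumours, n = 5, and K14 tumours, n = 4). Normal skin was wild type and came from control littermates (n = 4).

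All 19 libraries came from females on a C57BL/6J background, and the labels give 7 to 20 weeks as the age at induction, where the study's methods give a narrower range. Tamoxifen was put on the shaved back in the Ivl model and 4-hydroxytamoxifen in the K5 and K14 models, so the inducing agent differed along with the promoter. The study reports that tumours of the Ivl model appeared much later after induction and grew slowly. Time since induction thus differed with the promoter too, and cannot be told apart from it. K5 and K14 tumours grew on the back where the drug was applied, whereas mice of the Ivl model could bear several lesions, also on paws, ears and lips. The labels do not say that each tumour came from its own mouse, so the p-values measure the spread between these samples. The tissue was bulk, and in it fewer cells of a type and less RNA per cell cannot be told apart. Each library held 45715309 to 72609771 counts, and levels are given as CPM, counts per 1000000 counts with library sizes scaled by the trimmed mean of M values. The authors had adjusted the counts for a sequencing batch. Ivl tumours 1 to 3 and K5 tumour 1 stood apart in that their mean and that of all other libraries differed by under 0.1 on the log2 scale for 96.6% of 13954 genes, where the 4 K14 tumours gave 21.1%. Values without these 4 libraries, over the other 15, are given for the 10 genes together and where leaving them out changed a call or moved a called value by over 1.5 times.

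The outermost layer of the epidermis, the stratum corneum, holds water in through dead, flattened keratinocytes and the lipid sheets between them. Its lipids include acylceramides, which carry a very long fatty acid joined to linoleic acid. ELOVL4 lengthens that fatty acid, CYP4F39 hydroxylates its end, CERS3 joins it to the sphingoid base, PNPLA1 adds the linoleic acid and ABCA12 loads the lipids into lamellar granules. ALOX12B and then ALOXE3 oxidise the linoleic acid, a step needed before the lipid is bound to protein. TGM1 and TGM3 cross-link proteins into the cornified envelope to which these lipids are bound, and CASP14 takes part in the breakdown of filaggrin. Loss of many of these genes causes ichthyosis, a family of scaling skin disorders.

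In both tumour classes nearly all of these genes stood above normal skin. With edgeR's quasi-likelihood test and Benjamini-Hochberg adjustment over all 32031 genes tested, 9 of the 10 were higher in Ivl tumours and all 10 were higher in K5/K14 tumours, in which K5 and K14 are merged, but Elovl4 turned to lower in both when libraries were scaled to keratinocyte genes. Over all genes, 20.4% were higher and 15.5% lower in Ivl tumours, and 23.2% were higher and 38.9% lower in K5/K14 tumours. Scaling with DESeq2 size factors moved the split of calls in Ivl tumours from 6535 higher and 4980 lower to 5712 higher and 6828 lower. The median log2 fold change of the 10 genes was 2.16 in Ivl and 2.26 in K5/K14 tumours, where that of all genes was -0.46 and -0.60. Both comparisons use the same 4 skin libraries. The 10 genes did not share 1 fold: Tgm3, Casp14 and Alox12b had the largest fold changes in each comparison and Elovl4 the smallest.

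**Figure D1:**
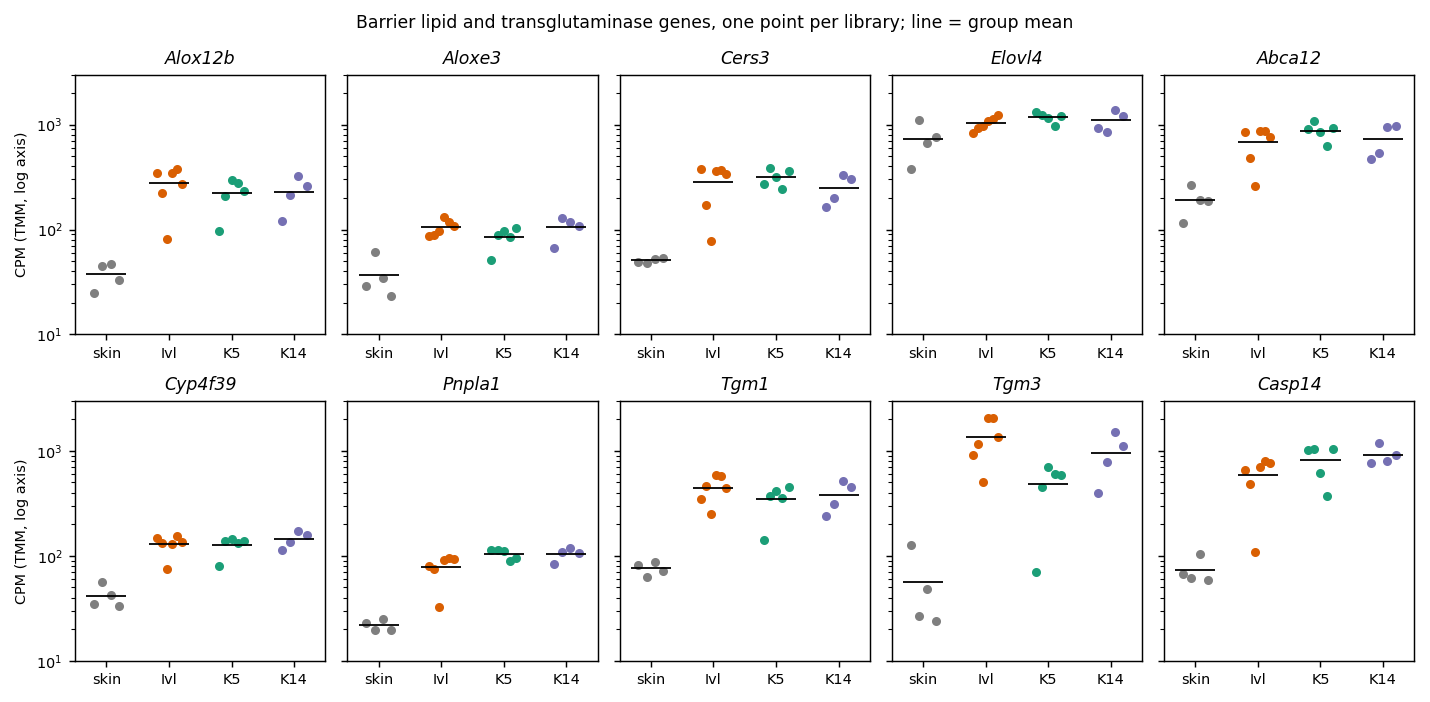
Level of each of the 10 genes in CPM (log axis) by group, with 1 point per library and a line at the group mean. The tumour points lie above the skin points for most genes, with overlap for Elovl4 in each tumour group and with Ivl tumour 3 and K5 tumour 1 lowest for several genes.

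The sequence before the start of these 4 genes, the leading 3 and the exception Elovl4, is shown because they mark the ends of that range. Each line gives the 250 bases before the RefSeq transcript start on the gene's own strand, GRCm38.p6, with matches to the motifs named below in capitals.
Alox12b, chr11:69156822-69157071, plus strand: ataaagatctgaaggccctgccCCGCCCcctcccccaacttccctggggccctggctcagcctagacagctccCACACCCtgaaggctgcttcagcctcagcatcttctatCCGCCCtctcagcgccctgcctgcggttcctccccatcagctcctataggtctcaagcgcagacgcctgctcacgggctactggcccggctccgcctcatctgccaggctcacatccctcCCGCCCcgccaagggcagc
Tgm3, chr2:130012090-130012339, plus strand: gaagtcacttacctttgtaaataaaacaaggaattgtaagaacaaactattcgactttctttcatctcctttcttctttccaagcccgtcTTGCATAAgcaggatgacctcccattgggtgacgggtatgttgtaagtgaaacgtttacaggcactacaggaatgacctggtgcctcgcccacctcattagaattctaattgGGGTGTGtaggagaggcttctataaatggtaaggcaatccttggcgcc
Casp14, chr10:78718294-78718543, minus strand: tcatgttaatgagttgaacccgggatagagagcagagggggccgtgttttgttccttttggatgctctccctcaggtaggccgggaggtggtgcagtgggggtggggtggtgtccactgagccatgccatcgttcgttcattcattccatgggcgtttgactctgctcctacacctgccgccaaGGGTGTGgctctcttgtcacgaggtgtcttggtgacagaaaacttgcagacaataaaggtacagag
Elovl4, chr9:83806306-83806555, minus strand: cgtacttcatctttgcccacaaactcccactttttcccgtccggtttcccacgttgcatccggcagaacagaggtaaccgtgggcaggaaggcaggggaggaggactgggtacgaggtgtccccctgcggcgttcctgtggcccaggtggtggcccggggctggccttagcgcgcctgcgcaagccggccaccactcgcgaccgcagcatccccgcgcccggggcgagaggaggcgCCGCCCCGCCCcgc

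Of the 10 genes, 9 had a promoter in the RefSeq table, Tgm1 with 2 of them, and Aloxe3 had none. The search covered 250 bases before and 50 after the start, on both strands. The letters CACACCC of Krüppel-like factors stood before Alox12b, Tgm3 and Casp14, and in 7.95% of all 32851 promoters. GGGCGG, the GC box of Sp and Krüppel-like factors, stood before Alox12b, Elovl4 and Tgm1, and in 35.7% of all promoters. The pair of GGGCGG matches before Elovl4 share a base. TTGCNNAA of the C/EBP factors was found for Tgm3 before its start and for Pnpla1 and Tgm1 after it, and in 10.8% of all promoters. No promoter of the 9 genes held TGANTCA of AP-1, present in 7.81% of all promoters, or AACCNGTT of the grainyhead-like factors, present in 2.09%. These matches describe the letters only, and say nothing about whether a factor binds there.

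Of the epidermal lipoxygenases, Alox12b (ENSMUSG00000032807, chr11:69156989-69169792, GRCm38, plus strand) rose more than Aloxe3 (ENSMUSG00000020892, chr11:69125896-69149115, plus strand), which ends 7873 bases before it. In normal skin 1 to 4 Alox12b stood at 24.9, 44.9, 46.8 and 32.7 CPM. In Ivl tumours it ran from 81.6 in tumour 3 through a median of 309 to 375 CPM, in K5 tumours it was 97.1, 209, 298, 277 and 232 CPM, and in K14 tumours 121, 211, 323 and 260 CPM. Every tumour lay above every skin sample. Against skin this was a log2 fold change of 2.88 ± 0.40 in Ivl tumours (SE, adjusted p = 2.76e-05) and 2.59 ± 0.38 in K5/K14 tumours (adjusted p = 2.16e-05), which is 7.36-fold and 6.04-fold.

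Aloxe3, which acts on the product of ALOX12B, was measured at 29.2, 61.0, 34.3 and 23.0 CPM in skin. Ivl tumours held 87.3 to 130 CPM with a median of 103, K5 tumours 51.0, 88.9, 96.6, 84.2 and 104 CPM, and K14 tumours 66.5, 128, 119 and 109 CPM. Only K5 tumour 1 lay below the highest skin sample. Its fitted log2 fold change against skin was 1.51 ± 0.26 in Ivl tumours (adjusted p = 0.000163) and 1.35 ± 0.25 in K5/K14 tumours (adjusted p = 0.000176).

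The log2 ratio of Alox12b to Aloxe3 within a library, which does not depend on how libraries are scaled apart from a prior count of 2, compares the change of both enzymes directly. It was 0.07 ± 0.48 (SD, n = 4) in skin, 1.24 ± 0.78 (n = 6) in Ivl tumours and 1.22 ± 0.34 (n = 9) in K5/K14 tumours. Against skin the K5/K14 ratio was higher by 1.15, with no overlap (two-sided exact permutation test, p = 0.0014, the smallest that 715 splits allow, adjusted p = 0.00839 over 6 tests). The Ivl ratio was higher by 1.17 (exact permutation p = 0.0381, adjusted p = 0.0457) and overlapped with skin, since Ivl tumour 3 had a ratio of -0.26 and the other Ivl tumours 1.32 to 1.98. Leaving out any of the 4 skin samples or any Ivl tumour except tumour 3 took that exact permutation p, adjusted, to between 0.0571 and 0.129. Between Ivl and K5/K14 tumours the difference was 0.03 (exact permutation p = 0.936, adjusted p = 0.936). In the set of 15 the K5/K14 ratio was higher than skin by 1.18 and the Ivl ratio by 1.4, and both passed the exact permutation test (adjusted p = 0.0121 and 0.0429).

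Among the genes that build acylceramide, Cers3 (ENSMUSG00000030510, chr7:66743504-66823691, plus strand), the ceramide synthase for very long fatty acids, had the tightest skin values, at 48.9, 48.4, 51.9 and 54.0 CPM. Ivl tumours 1 to 6 held 378, 172, 77.8, 364, 373 and 340 CPM, K5 tumours 271, 388, 315, 243 and 358 CPM, and K14 tumours 165, 199, 328 and 304 CPM. No tumour overlapped with skin. Relative to skin, the log2 fold change was 2.48 ± 0.36 in Ivl tumours (adjusted p = 3.12e-05) and 2.49 ± 0.34 in K5/K14 tumours (adjusted p = 1.02e-05).

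Elovl4 (ENSMUSG00000032262, chr9:83778692-83806277, minus strand), the elongase of very long fatty acids, departed from the other 9 genes. It was already high in skin, at 375, 1114, 663 and 762 CPM. Ivl tumours held 834 to 1235 CPM with a median of 1025, K5 tumours 1331, 1225, 1163, 960 and 1203 CPM, and K14 tumours 936, 849, 1384 and 1216 CPM. Skin and tumours overlapped, and 8 of the 15 tumours lay above every skin sample. The log2 fold change was 0.49 ± 0.22 in Ivl tumours, which did not pass (adjusted p = 0.0833), and 0.65 ± 0.21 in K5/K14 tumours, which did (adjusted p = 0.0124). Over the 15 libraries the Ivl value was 0.65 ± 0.26 and passed (adjusted p = 0.0433), and without normal skin 2 it was 0.76 ± 0.20 (adjusted p = 0.00883).

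Cyp4f39 (ENSMUSG00000061126, chr17:32452723-32493320, plus strand), the fatty acid hydroxylase, and Pnpla1 (ENSMUSG00000043286, chr17:28858411-28890309, plus strand), the acyltransferase, were higher in every tumour than in any skin sample. Cyp4f39 stood at 34.7, 56.2, 42.7 and 33.0 CPM in skin, at 74.7 to 155 CPM with a median of 135 in Ivl tumours, at 79.6, 139, 143, 132 and 140 CPM in K5 tumours and at 114, 137, 173 and 157 CPM in K14 tumours. Against skin this was a log2 fold change of 1.63 ± 0.22 in Ivl tumours (adjusted p = 2.18e-05) and 1.70 ± 0.21 in K5/K14 tumours (adjusted p = 3.52e-06). Ivl tumour 3 and K5 tumour 1 lay well below the rest of their groups.

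Pnpla1 had, with Aloxe3, the lowest level per length in skin. It stood at 22.8, 19.4, 24.9 and 19.8 CPM there, at 79.5, 74.9, 32.3, 90.4, 96.1 and 93.7 CPM in Ivl tumours 1 to 6, at 114, 114, 112, 90.0 and 95.4 CPM in K5 tumours and at 84.1, 109, 118 and 107 CPM in K14 tumours. Its fitted log2 fold change against skin was 1.84 ± 0.22 in Ivl tumours (adjusted p = 1.82e-05) and 2.27 ± 0.22 in K5/K14 tumours (adjusted p = 9.68e-07). An antisense gene, Pnpla1os, shares 644 exonic bases with it and reached at most 23 counts in a library.

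Abca12 (ENSMUSG00000050296, chr1:71242276-71414910, minus strand), the lipid transporter of lamellar granules, was measured at 116, 264, 191 and 189 CPM in skin. Ivl tumours 1 to 6 held 845, 477, 261, 871, 865 and 764 CPM, K5 tumours 900, 1086, 856, 624 and 922 CPM, and K14 tumours 469, 542, 955 and 980 CPM. Ivl tumour 3 fell just under the highest skin sample, and the other 14 tumours lay above all skin samples. Relative to skin, the log2 fold change was 1.84 ± 0.33 in Ivl tumours (adjusted p = 0.000209) and 2.1 ± 0.32 in K5/K14 tumours (adjusted p = 2.72e-05).

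Of the transglutaminases, Tgm1 (ENSMUSG00000022218, chr14:55700009-55713926, minus strand), the membrane-bound enzyme, stood at 81.9, 63.4, 86.5 and 72.0 CPM in skin. Ivl tumours held 251 to 586 CPM with a median of 453, K5 tumours 141, 372, 418, 359 and 450 CPM, and K14 tumours 242, 314, 512 and 456 CPM. Every tumour lay above every skin sample. Against skin this was a log2 fold change of 2.55 ± 0.31 in Ivl tumours (adjusted p = 1.83e-05) and 2.26 ± 0.29 in K5/K14 tumours (adjusted p = 5.76e-06). The antisense gene Gm49067 shares 182 exonic bases with Tgm1 and reached at most 10 counts.

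Tgm3 (ENSMUSG00000027401, chr2:130012349-130050399, plus strand), a soluble transglutaminase that is also made in the hair follicle, had the largest fold and the widest spread of the 10. Skin samples 1 to 4 held 127, 26.7, 48.0 and 24.0 CPM. Ivl tumours 1 to 6 held 906, 1153, 500, 2073, 2070 and 1360 CPM, K5 tumours 70.3, 449, 708, 604 and 594 CPM, and K14 tumours 398, 790, 1502 and 1113 CPM. K5 tumour 1 lay within the range of skin, and the other 14 tumours above it. From the lowest to the highest tumour the level differed 29.5-fold, where Elovl4 differed 1.66-fold.

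For Tgm3 the log2 fold change was 4.57 ± 0.74 in Ivl tumours (adjusted p = 0.000107) and 3.62 ± 0.69 in K5/K14 tumours (adjusted p = 0.000281), which is 23.8-fold and 12.3-fold. Without normal skin 1, which was high, these values were 5.34 ± 0.79 (adjusted p = 0.000109) and 4.39 ± 0.74 (adjusted p = 0.000145). The summed level of 7 inner root sheath markers of the hair follicle was 4509 CPM in normal skin 1 and 40.0 to 2194 CPM in the other skin samples, 28.7 to 2602 CPM in Ivl, 88.9 to 184 CPM in K5 and 102 to 1907 CPM in K14 tumours, and none of the 7 was at 0 throughout a group. Their part in the Tgm3 values was not tested.

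The balance of the 2 transglutaminases moved toward Tgm3. The log2 ratio of Tgm1 to Tgm3 was 0.76 ± 0.98 (SD, n = 4) in skin, -1.50 ± 0.33 in Ivl tumours (n = 6) and -0.67 ± 0.76 in K5/K14 tumours (n = 9). Against skin it was lower by 2.26 in Ivl tumours (-2.26, two-sided exact permutation p = 0.00476, the smallest that 210 splits allow, adjusted p = 0.0143), with no overlap. It was lower by 1.44 in K5/K14 tumours (-1.44, exact permutation p = 0.0182, adjusted p = 0.0273), with overlap. Ivl tumours also lay below K5/K14 tumours, by 0.83 (-0.83, exact permutation p = 0.0182, adjusted p = 0.0273), with overlap, K5 tumour 1 having a ratio of 1.0. The ratios ran from -1.85 to -0.996 in Ivl, from -1.55 to -0.72 in K14 and from -0.76 to 1.0 in K5 tumours. K14 tumours thus overlapped with Ivl tumours, and K5 tumours did not. The value for K5/K14 tumours against skin did not pass the exact permutation test without normal skin 2 (adjusted p = 0.075) or 4 (0.0655), and that between the tumour classes did not pass without Ivl tumour 4 (0.0659), 5 (0.0697) or 6 (0.0562). Over the 15 libraries the Ivl ratio was lower than skin by 2.52, with adjusted p = 0.0686 in the exact permutation test of 3 Ivl tumours, while the other values still passed (-1.65, adjusted p = 0.0182, for K5/K14 tumours against skin and -0.88, adjusted p = 0.0429, between the tumour classes).

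**Figure D2:**
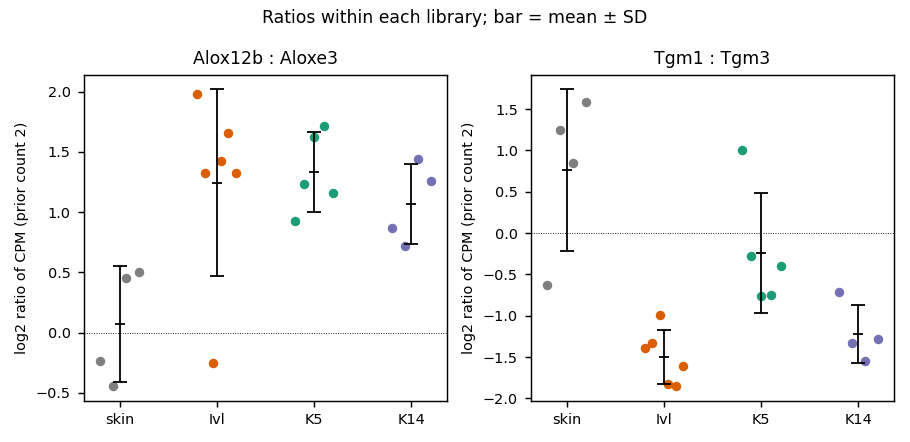
Log2 ratio of Alox12b to Aloxe3 (left) and of Tgm1 to Tgm3 (right) within each library, from CPM with a prior count of 2, with 1 point per library and bars for the group mean ± SD. Ivl tumour 3 is the low point on the left, and K5 tumour 1 the high tumour point on the right.

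Casp14 (ENSMUSG00000005355, chr10:78711991-78718294, minus strand), the protease of cornifying keratinocytes, stood at 66.6, 61.8, 104 and 59.3 CPM in skin. Ivl tumours 1 to 6 held 651, 489, 109, 705, 797 and 769 CPM, K5 tumours 1021, 1033, 613, 373 and 1044 CPM, and K14 tumours 763, 1191, 802 and 907 CPM. All 15 tumours lay above skin, Ivl tumour 3 by a small margin. Its fitted log2 fold change against skin was 3.0 ± 0.43 in Ivl tumours (adjusted p = 3.29e-05) and 3.56 ± 0.44 in K5/K14 tumours (adjusted p = 3.50e-06), which is 8.03-fold and 11.8-fold.

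Taking the groups as ranges, 8 of the 10 genes were higher in all Ivl tumours than in all skin samples, where 13.2% of all genes were. For K5/K14 tumours 7 of the 10 genes were, where 16.7% of all genes were. Ivl tumour 3 held the lowest level of all 15 tumours for 6 genes, K5 tumour 1 for 3 genes and Ivl tumour 1 for Elovl4. K14 tumour 1 was among the lowest 3 tumours for 7 genes. The summed level of 8 suprabasal epidermal markers was 11542 CPM in Ivl tumour 3, the lowest of the Ivl tumours, 13529 CPM in K5 tumour 1 and 10608 CPM in K5 tumour 4, where the highest tumour held 57411 CPM and skin 2891 to 6245 CPM, and none was at 0 throughout a group. The summed level of 7 fibroblast markers was highest among Ivl tumours in Ivl tumour 3 (10801 CPM, the lowest being 1487) and among K5 tumours in K5 tumour 1 (15064 CPM, the lowest being 5511), and none was at 0 throughout a group. Their part in the low values was not tested, nor was that of the batch adjustment. Over the 15 libraries, which leave out Ivl tumour 3 and K5 tumour 1, all 10 genes were higher in both comparisons, where 22.2% and 23.9% of all genes were. Their log2 fold changes there ran from 0.65 ± 0.26 for Elovl4 to 5.02 ± 0.61 for Tgm3 in Ivl tumours, with a median of 2.48, and from 0.62 ± 0.22 to 3.77 ± 0.54 for the same genes in K5/K14 tumours, with a median of 2.31. Alox12b had 3.16 ± 0.28 and 2.69 ± 0.25 in the same fits, while Casp14 rose by 3.37 ± 0.32 in Ivl tumours.

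**Figure D3:**
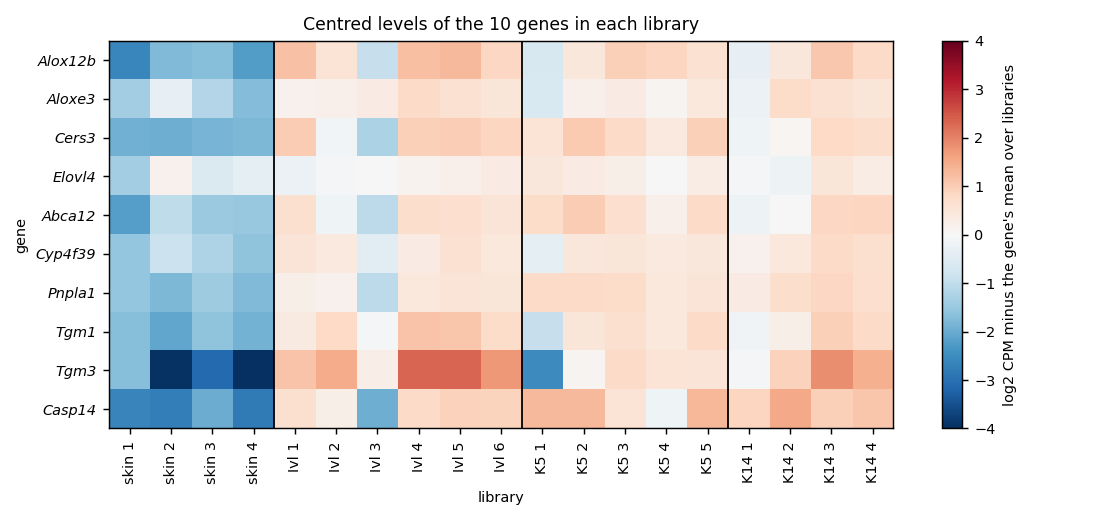
Log2 CPM (prior count 2) of each gene in each library after subtracting that gene's mean over the 19 libraries, red for higher and blue for lower, with black lines between the groups. The 4 skin columns are blue for nearly all genes, Ivl tumour 3 and K5 tumour 1 are blue or pale for several genes, and the Elovl4 row has the smallest range.

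Levels of different genes were compared per kilobase of exonic length (CPM per kb). In skin Elovl4 came first, at 241 ± 101 CPM per kb (SD, n = 4), followed by Casp14 at 30.5 ± 8.85 and Tgm1 at 24.0 ± 3.26. Cers3, Alox12b, Cyp4f39, Tgm3 and Abca12 followed with overlapping spreads, from 15.6 ± 0.81 to 12.8 ± 4.07, and Aloxe3 at 5.77 ± 2.62 and Pnpla1 at 4.49 ± 0.54 came last and did not differ beyond their spread. In Ivl tumours Elovl4 at 339 ± 48.4, Tgm3 at 325 ± 153 and Casp14 at 245 ± 108 CPM per kb (n = 6) led with overlapping spreads. In K5/K14 tumours Elovl4 at 377 ± 61.0 and Casp14 at 360 ± 106 CPM per kb (n = 9) led, followed by Tgm3 at 167 ± 101. Tgm3 thus moved from the seventh place in skin to the second in Ivl and the third in K5/K14 tumours, while Aloxe3 and Pnpla1 stayed last.

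Keratinocyte markers as a whole were also higher in tumours than in skin. The summed level of 17 keratinocyte markers, such as Krt5, Krt14, Dsp and Trp63, was 10113 to 15505 CPM in skin, 34463 to 84775 CPM in Ivl, 64017 to 76238 CPM in K5 and 61820 to 97711 CPM in K14 tumours. In Ivl tumours 13 of the 17 were higher and none lower, and in K5/K14 tumours all 17 were higher, and none was at 0 throughout a group. Of 7 markers of skeletal muscle all 7 were lower in K5/K14 tumours, while 0 of 7 passed in Ivl tumours, with sums of 2218 to 6798 CPM in skin, 4.72 to 4044 CPM in Ivl, 7.15 to 157 CPM in K5 and 5.76 to 462 CPM in K14 tumours. Of 4 keratins listed for oral and mucosal epithelium, Krt13, Krt4, Krt76 and Krt6b, all 4 were higher in Ivl tumours and 2 in K5/K14 tumours than in skin, and 3 were higher in Ivl than in K5/K14 tumours. Their sums, mostly Krt6b, were 121 to 268 CPM in skin, 980 to 33171 CPM in Ivl, 19961 to 37773 CPM in K5 and 16354 to 31441 CPM in K14 tumours. The study names Krt6b as a marker of squamous cell carcinoma, so these sums do not measure mucosal cells. No marker of either list was at 0 throughout a group, and the part of muscle or mucosal cells in the values of the 10 genes was not tested. The fit was repeated with libraries scaled so that the geometric mean of the 17 keratinocyte genes was equal, which moved the median log2 fold change of all genes to -1.80 in Ivl and -2.28 in K5/K14 tumours. The 17 genes did not move together: on that scale 5 were higher and 7 lower in Ivl tumours, from -1.30 to 1.93. In K5/K14 tumours 5 of them were higher and 6 lower, from -1.19 to 2.07.

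On that scale 5 of the 10 genes were higher and 1 was lower in Ivl tumours, where 3.18% of all genes were higher and 73.7% lower. Tgm3 was higher by 2.95 ± 0.63 on the log2 scale (adjusted p = 0.000673), Casp14 by 1.49 ± 0.40 (0.00283), Alox12b by 1.43 ± 0.30 (0.000407), Tgm1 by 1.06 ± 0.24 (0.000824) and Cers3 by 1.0 ± 0.29 (0.00463). Elovl4 was lower, at -0.84 ± 0.19 (0.000701). Aloxe3 (0.16 ± 0.22), Abca12 (0.43 ± 0.24), Cyp4f39 (0.23 ± 0.17) and Pnpla1 (0.36 ± 0.20) did not pass.

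In K5/K14 tumours 6 were higher and 1 lower, where 3.26% of all genes were higher and 82.5% lower. Casp14 was higher by 1.85 ± 0.39 (adjusted p = 0.000213), Tgm3 by 1.72 ± 0.57 (0.00945), Alox12b by 0.87 ± 0.27 (0.00609), Cers3 by 0.76 ± 0.27 (0.0125), Pnpla1 by 0.54 ± 0.19 (0.0113) and Tgm1 by 0.49 ± 0.22 (0.0455). Elovl4 was lower, at -1.0 ± 0.17 (2.1e-05). Abca12 (0.42 ± 0.23), Cyp4f39 (0.00 ± 0.16) and Aloxe3 (-0.31 ± 0.20) did not pass. Tgm3, Casp14, Alox12b, Cers3 and Tgm1 were thus higher under either scaling and in both tumour classes. Elovl4 was higher or not past the threshold under one scaling and lower under the other. Except for Tgm3 in Ivl tumours, the values on the keratinocyte scale lay within the range of the scaling genes themselves, so they depend on which markers are chosen.

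**Figure D4:**
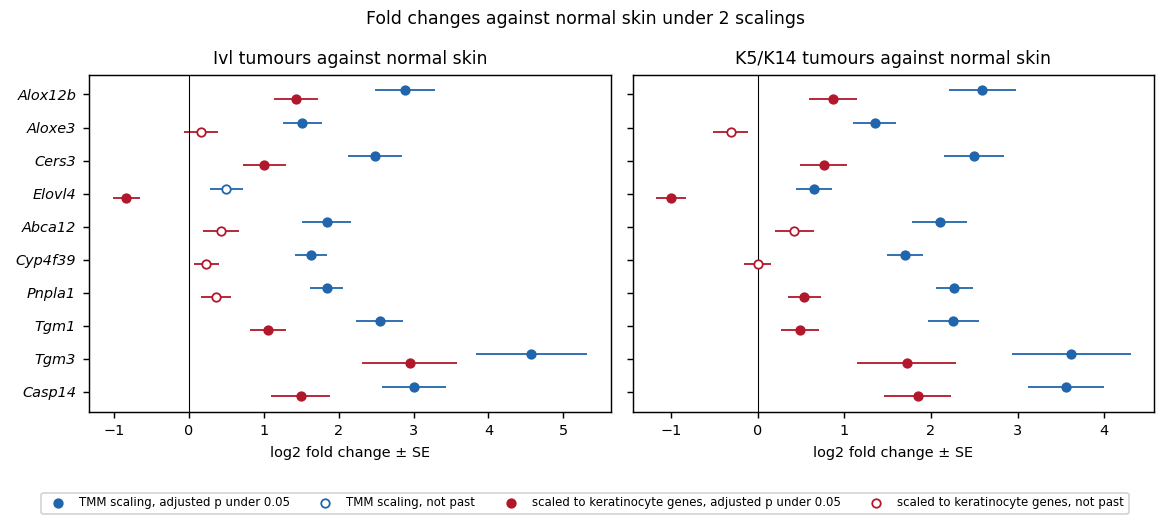
Log2 fold change ± SE of each gene against normal skin in Ivl (left) and K5/K14 tumours (right), with the usual scaling in blue and with scaling to keratinocyte genes in red. Filled points pass at adjusted p under 0.05 and open points do not, and every gene shifts to the left under the second scaling, Elovl4 to below 0.

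Between the tumour classes no gene of the 10 passed. With edgeR 0 of 10 differed between Ivl and K5/K14 tumours, where 1.77% of all genes were higher and 0.593% lower, and DESeq2 also gave 0, where 4.3% of all genes were higher and 2.36% lower. At an unadjusted p under 0.05, which 21.1% of all genes reached, there was 1, Pnpla1, at -0.43 ± 0.17 on the log2 scale (adjusted p = 0.154), its means being 77.8 CPM in Ivl and 105 CPM in K5/K14 tumours. Tgm3 had the largest difference, 0.96 ± 0.48 (adjusted p = 0.263), with means of 1344 and 692 CPM, and Casp14 had -0.55 ± 0.32 (adjusted p = 0.326), the means being 586 and 861 CPM. The other 7 lay between -0.26 and 0.29. Over the 15 libraries Tgm3 had 1.25 ± 0.46 (adjusted p = 0.305) and Tgm1 0.46 ± 0.18 (adjusted p = 0.343), both at an unadjusted p under 0.05 as were 11.3% of all genes, and Pnpla1 had -0.15 ± 0.11 (adjusted p = 0.682). With scaling to keratinocyte genes 0 of 10 passed, where 9.59% of all genes were higher, and 4 were at an unadjusted p under 0.05, where 31.9% of all genes were, Tgm1 nearest to the threshold at 0.57 ± 0.19 (adjusted p = 0.0539).

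K5 and K14 tumours differed in 0 of 10 genes with edgeR and with DESeq2, and in 0 at an unadjusted p under 0.05, where 0% of all genes passed with edgeR, 0.184% were higher and 0.356% lower with DESeq2, and 6.07% were at an unadjusted p under 0.05 with edgeR. Tgm3 again had the largest difference, -0.97 ± 0.59 (adjusted p = 0.874), with means of 485 CPM in K5 and 951 CPM in K14 tumours, and Aloxe3 and Cers3 had -0.32 ± 0.25 (adjusted p = 0.891) and 0.34 ± 0.34 (adjusted p = 0.904). In the set of 15 likewise 0 of 10 passed, and Tgm3 had -0.69 ± 0.49 (adjusted p = 0.679).

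Most other genes of the pathway were also higher than in skin, and fewer were once libraries were scaled to keratinocyte genes. On that second scale 3.18% of all genes were higher and 73.7% lower in Ivl tumours, and 3.26% and 82.5% in K5/K14 tumours. With the usual scaling 20.4% and 23.2% of all genes were higher. Of 22 tested genes of acylceramide and stratum corneum lipid metabolism, 17 were higher and none lower in Ivl tumours, and 18 were higher and 1 lower in K5/K14 tumours, with medians of 1.65 and 1.86 on the log2 scale, though with scaling to keratinocyte genes 6 were higher and 5 lower in Ivl and 5 higher and 6 lower in K5/K14 tumours. Degs2, which hydroxylates dihydroceramide to phytoceramide, rose most, by 4.08 ± 0.58 in Ivl (adjusted p = 3.46e-05) and 5.43 ± 0.61 in K5/K14 tumours (2.37e-06). Sdr9c7, a dehydrogenase that acts after ALOXE3 on the linoleate of acylceramides, rose by 2.78 ± 0.35 (1.96e-05) and 3.25 ± 0.35 (1.51e-06). Sult2b1, the cholesterol sulphotransferase, rose by 2.72 ± 0.32 in Ivl tumours (1.82e-05), and the lipase Lipn by 3.26 ± 0.54 in K5/K14 tumours (8.41e-05). The gene that fell in K5/K14 tumours was Elovl6, an elongase of shorter fatty acids, at -2.32, and over the 15 libraries it passed in Ivl tumours too, at -1.86 (adjusted p = 0.0252).

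Genes for the proteins that transglutaminases cross-link were likewise mostly higher. Of 13 substrates of the cornified envelope 10 were higher and 1 lower in Ivl tumours, and 10 were higher and 2 lower in K5/K14 tumours. With scaling to keratinocyte genes 7 were higher and 3 lower in Ivl and 6 higher and 4 lower in K5/K14 tumours. Of all genes 3.18% and 3.26% were higher and 73.7% and 82.5% lower on that scale. Sprr1b rose by 5.97 ± 0.80 in Ivl (adjusted p = 2.34e-05, and by 6.62 over the 15 libraries) and 6.57 ± 0.81 in K5/K14 tumours (4.29e-06), the involucrin gene Ivl by 4.72 ± 0.63 (2.29e-05) and 6.42 ± 0.68 (1.54e-06). Repetin, Rptn, rose by 4.68 ± 0.74 in Ivl tumours (8.08e-05), and the cystatin gene Csta1 by 5.81 ± 0.60 in K5/K14 tumours (1.51e-06). Flg2 was lower in both, at -3.09 and -1.86, and at -3.67 and -3.05 over the 15 libraries, and the K5/K14 value did not pass without normal skin 2 (adjusted p = 0.089) or 3 (0.0662). Without K5 tumour 1 the K5/K14 value was -3.05 ± 0.39 (adjusted p = 8.71e-06). Tchh, a hair follicle protein, was lower in K5/K14 tumours, at -2.22, but at -1.57 without normal skin 1 (adjusted p = 0.157). Its call was also lost without normal skin 4, any of K5 tumours 2 to 4 or K14 tumours 3 and 4 (0.0501 to 0.0526), and without K14 tumour 1 it stood at -3.06. With the usual scaling Ivl was the only gene of the 7 pathway lists that passed between the tumour classes, at -1.70 ± 0.44 (adjusted p = 0.047), with 323 CPM in Ivl and 1048 CPM in K5/K14 tumours. It did not pass over the 15 libraries, at -1.0 ± 0.45 (adjusted p = 0.416), nor without any of Ivl tumours 1, 2, 3 and 6, K14 tumours 3 and 4, skin samples 1, 3 and 4 or any single K5 tumour. The call was also lost without the filter on low counts (0.0517) and with the 4 libraries that stood apart as a covariate (0.0688). With scaling to keratinocyte genes 2 substrates were higher and 2 lower in Ivl than in K5/K14 tumours, and 1 gene of the list of other lipoxygenases and 1 paralogue were higher. Of all genes 9.59% were higher and 0.353% lower in that comparison and scaling.

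Of 10 genes of filaggrin and its processing, 6 were higher and 1 lower in each tumour class. With scaling to keratinocyte genes 4 were higher and 3 lower in Ivl and 3 higher and 5 lower in K5/K14 tumours. Of all genes 3.18% and 3.26% were higher and 73.7% and 82.5% lower on that scale. The proteases Asprv1 and Blmh rose by 2.94 ± 0.45 (adjusted p = 5.56e-05) and 2.97 ± 0.37 (1.96e-05) in Ivl tumours and by 3.63 ± 0.46 (4.32e-06) and 3.53 ± 0.37 (1.51e-06) in K5/K14 tumours. Hrnr, a filaggrin-like gene, rose by 2.82 ± 0.46 in K5/K14 tumours (6.07e-05). Flg2, a relative of filaggrin that is counted in both lists, went down, with means of 831 CPM in skin, 97.7 CPM in Ivl and 229 CPM in K5/K14 tumours (adjusted p = 0.00782 and 0.032). As given above, the second call was lost without normal skin 2 or 3, and the fall was larger without K5 tumour 1.

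Few relatives of the 10 genes were higher. Of 6 other transglutaminases only Tgm5, an epidermal enzyme, was higher, by 1.35 ± 0.29 (adjusted p = 0.00136) in Ivl and 1.38 in K5/K14 tumours, and with scaling to keratinocyte genes it did not pass in either. None was lower in Ivl tumours with the usual scaling, but 3 were over the 15 libraries and 4 with scaling to keratinocyte genes, where 73.7% of all genes were lower. In K5/K14 tumours 5 were lower, where 38.9% of all genes were. Among them were Tgm6 at -3.72 ± 1.14 (0.00967), Tgm7 at -3.10 ± 0.67 (0.000744) and Tgm2, the widely expressed enzyme, at -2.32 ± 0.51 (0.000945). Tgm7 held few counts, 556 over the 4 skin samples and 71 over the 9 K5/K14 tumours, with 0 to 13 in each tumour. Tgm6 did not pass without normal skin 1 (-2.70, adjusted p = 0.0614), and without K14 tumour 1 it stood at -5.41. The list of 6 other lipoxygenase genes includes Alox5ap, which encodes an activating protein and not a lipoxygenase. Of these 6 only Alox12 was higher, by 1.78 ± 0.29 (8.99e-05) in Ivl and 1.54 in K5/K14 tumours, again not past the threshold with scaling to keratinocyte genes. In K5/K14 tumours 3 of the 6 were lower, where 38.9% of all genes were: Alox12e at -3.29 ± 1.29 (0.0349), Alox8 at -1.78 ± 0.65 (0.0234) and Alox5 at -1.58 ± 0.42 (0.00355). The Alox8 value rested on normal skin 1, without which it was -0.32 (adjusted p = 0.664). Alox12e did not pass without any one of K5 tumours 2 and 3, K14 tumours 2 and 4 and skin samples 2 to 4 (adjusted p = 0.0505 to 0.0629), and without K14 tumour 1 it stood at -4.34.

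Of 16 paralogues of the lipid genes, 1 was higher and 5 lower (8 over the 15 libraries) in Ivl tumours and 1 higher and 9 lower in K5/K14 tumours, with medians of -0.75 and -1.18. Of all genes 15.5% and 38.9% were lower with that scaling. With scaling to keratinocyte genes none was higher and 12 and 14 were lower, near the 73.7% and 82.5% of all genes that were lower there. Cers4, a ceramide synthase made in sebaceous gland and hair follicle, was lower at -2.31 ± 0.64 in K5/K14 tumours (adjusted p = 0.00496), Cers1 at -2.45 ± 0.82 (0.0258) in Ivl and -1.85 ± 0.72 (0.032) in K5/K14 tumours, and Pnpla3 at -1.65 ± 0.51 in Ivl tumours (0.0175). Pnpla3 did not pass without normal skin 2 (-1.20, adjusted p = 0.0992), and Cers4 stood at -3.01 without K14 tumour 1. Leaving out Ivl tumour 4, 5 or 6 or skin 2 took the call of Cers1 in Ivl tumours (adjusted p = 0.0534 to 0.0707), and it stood at -3.79 over the 15 libraries and at -3.32 without Ivl tumour 2. Its call in K5/K14 tumours was lost without K5 tumour 2, K14 tumour 3 or skin 2 or 4 (0.0508 to 0.0976). Counts of Cers1 were low, at 295 over the 4 skin samples and 50 over the 6 Ivl tumours, with 0 to 28 in each. Over the 9 K5/K14 tumours there were 100, with 2 to 48 in each. Cyp4f14 was lower in both but held only 30 counts over the 4 skin samples, 4 over the 6 Ivl tumours and 1 over the 9 K5/K14 tumours, and its call in Ivl tumours was lost with DESeq2 (adjusted p = 0.121) and without any one of K5 tumour 1, Ivl tumours 4 to 6 and skin 4 (0.0509 to 0.0989). The sebaceous gland markers had sums of 1224 to 3604 CPM in skin and 89.6 to 2428 CPM in tumours, none was at 0 throughout a group, and their part in the paralogue values was not tested.

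Of 17 transcription factors of late epidermal differentiation, 10 were higher and 1 lower in Ivl tumours and 12 higher and 1 lower in K5/K14 tumours. With scaling to keratinocyte genes 4 were higher and 8 lower in Ivl and 2 higher and 11 lower in K5/K14 tumours. Of all genes 3.18% and 3.26% were higher and 73.7% and 82.5% lower on that scale, and whether the factors differ from genes at large was not tested. Hopx, a homeodomain protein of suprabasal cells, rose by 2.91 ± 0.42 (adjusted p = 3.26e-05) in Ivl and 3.18 ± 0.41 (5.80e-06) in K5/K14 tumours. Grhl3, the grainyhead-like factor of barrier formation, rose by 2.04 ± 0.31 (4.85e-05) and 1.98 ± 0.30 (2.49e-05), but with scaling to keratinocyte genes by 0.61 in Ivl tumours (0.0185), and it did not pass in K5/K14 tumours (0.24, adjusted p = 0.27). Ovol1 rose by 2.07 ± 0.26 in Ivl tumours (1.99e-05), and Ppard, the nuclear receptor PPARδ, by 2.51 ± 0.27 in K5/K14 tumours (1.51e-06). Gata3 was the factor that fell, at -1.03 and -1.53. Its call in Ivl tumours was lost without Ivl tumour 1, 4, 5 or 6 or skin 1, 2 or 3 (adjusted p = 0.0554 to 0.0952), and over the 15 libraries the value was -1.70 (5.75e-05).

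**Figure D5:**
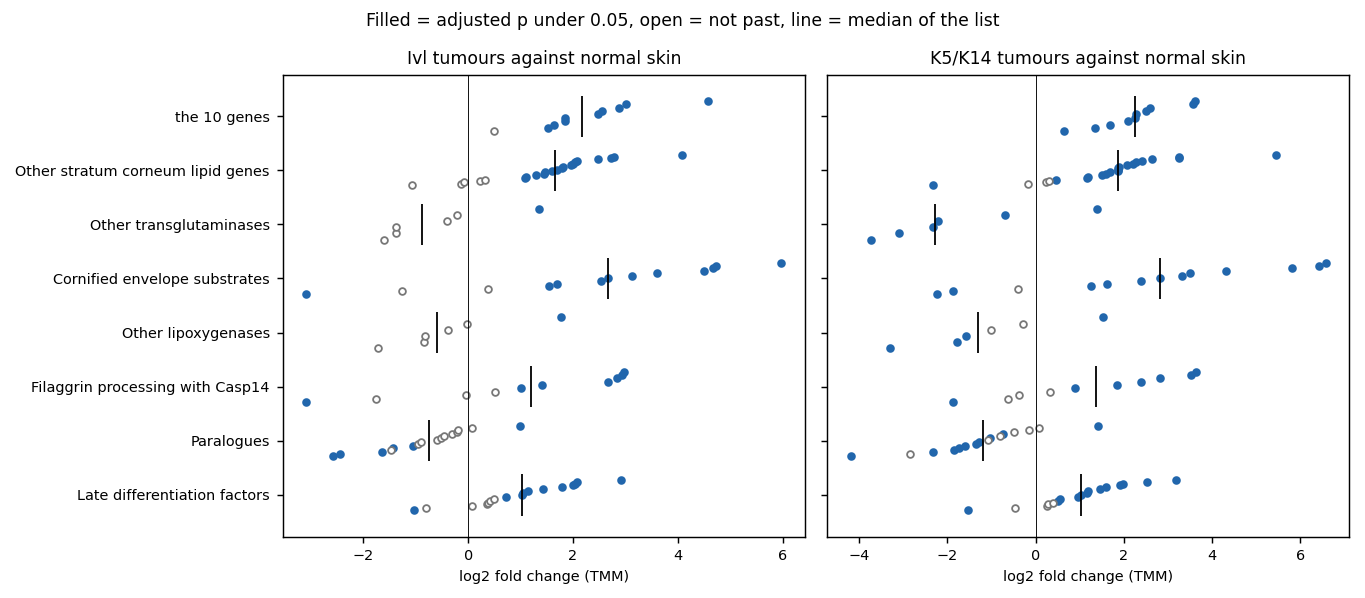
Log2 fold change against normal skin in Ivl (left) and K5/K14 tumours (right), with the usual scaling, for the 10 genes and each pathway list, with 1 point per gene and a line at the list's median. The 10 genes, the other lipid genes and the envelope substrates have medians above 1.5, and the other transglutaminases, other lipoxygenases and paralogues have medians below 0. With scaling to keratinocyte genes, not drawn, the first 3 medians were 0.15 to 1.27 and the last 3 stayed below 0.

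The genes whose centred profile over the 19 libraries lay closest to the mean profile of the 10 were Dsg1b, a desmosomal cadherin of differentiating keratinocytes, Ephx3, an epoxide hydrolase of the epidermal lipoxygenase pathway, Gdpd3, Eif6, Sept5 and Pkp1, a desmosomal plaque protein. Their root mean square distance from it was 0.21 to 0.24 on the log2 scale. Of the 10 themselves Tgm1 was the closest to their common profile, at 0.29, and Tgm3 (1.2), Elovl4 (0.77) and Casp14 (0.71) were the farthest.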

How the data were processed

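The deposited table holds estimated counts: the authors trimmed paired-end reads of a strand-specific poly(A) library with Trim Galore, aligned them with HISAT2 2.1.0 to GRCm38, counted them per gene with featureCounts (Subread 1.6.3, Ensembl release 100) and adjusted the counts for sequencing batch with ComBat-seq. Whether pairs or strand were counted, and which library belonged to which batch, is not given in the sources used here. The values were whole numbers and were not scaled by library size.

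Any gene that reached 5 counts in some library was fitted with edgeR 4.0.16 in R 4.3.3 (TMM, quasi-likelihood F test, Benjamini-Hochberg adjustment, threshold 0.05), all 19 libraries in 1 model with K5 and K14 merged except where they were compared. The standard error is the log2 fold change divided by the square root of F, and group means carry the SD. Pair ratios used log2 CPM with a prior count of 2 and exact permutation tests, adjusted over 6 tests. Only the edgeR group fit was tried on simulated counts, with a fixed spread shared by all genes and no batch adjustment. The other steps were not simulated. Alternatives were DESeq2 1.42.0, other scalings and filters, the 15 libraries, a replicate block and leaving out each library; the 15 libraries combined with keratinocyte scaling were added after seeing the data. The counting precision of each level is set by the depth of the library, and the lowest count of any of the 10 genes in a library was 1727. The 10 genes, the lists and the rule for named genes (from each list the 3 called genes with the largest changes in each comparison with skin, plus any that passed between tumour classes) were chosen with earlier results of these data known. Genes named outside the rule, chosen after their values were seen, are Elovl6, Tchh, Gata3 and the 6 of nearest profile.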

Additional observations from a re-analysis of the deposited data

Results flagged for a closer look

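In 7 of 40 gene and group combinations tested, 1 tumour stood apart from the rest of its group by Dixon's ratio. This is the gap to the nearest sample divided by the group's range, both taken on log2 CPM. Each of these ratios exceeded the 95% critical value for its group size, where chance gives about 1 in 20. The CPM values in brackets show the levels only, and ratios taken from CPM itself would differ. Ivl tumour 3 was low for Alox12b (81.6 CPM against 224 to 375, ratio 0.663), Cyp4f39 (74.7 against 129 to 155, ratio 0.747), Pnpla1 (32.3 against 74.9 to 96.1, ratio 0.772) and Casp14 (109 against 489 to 797, ratio 0.755). K5 tumour 1 was low for Cyp4f39 (79.6 against 132 to 143, ratio 0.863), Tgm1 (141 against 359 to 450, ratio 0.806) and Tgm3 (70.3 against 449 to 708, ratio 0.803). Both libraries are among the 4 whose mean lay close to that of the other libraries, skin included, for nearly all genes. The counts had been adjusted for batch, and the part of that adjustment in these low values was not tested. The 4 ratios of Ivl tumour 3 come from 1 sample, as do the 3 of K5 tumour 1, so they are not separate events.

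The log2 ratio of Tgm1 to Tgm3 differed between Ivl and K5/K14 tumours by -0.826 (two-sided exact permutation p = 0.0182, adjusted p = 0.0273). Without K5 tumour 1 the difference was -0.62. K14 tumours, at -1.55 to -0.72, overlapped with Ivl tumours, at -1.85 to -0.996, and K5 tumours, at -0.76 to 1.0, did not.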

How the results depend on the processing

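Of 1160 recomputed fold changes of the 10 genes, 1142 kept their side of the threshold and, where past it, their direction, 10 no longer passed, 2 newly passed and 6 reversed. Scaling to keratinocyte genes left 5 of 10 genes higher and 1 lower in Ivl tumours, and 6 higher and 1 lower in K5/K14 tumours. Over the 15 libraries with that scaling, 7 were higher and 1 lower in Ivl and 6 higher and 1 lower in K5/K14 tumours. The reversed values under these 2 settings were -0.84 and -0.89 for Elovl4 in Ivl tumours, -1.0 and -1.05 for Elovl4 in K5/K14 tumours, and -0.31 and -0.24 for Aloxe3 in K5/K14 tumours. Tgm5 in Ivl tumours reversed under the second, to -0.040. Of 2289 recomputed fold changes of these and the named pathway genes, 41 changed sign while past the threshold in neither fit.

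With the replicate number as a block, 9 genes were higher in Ivl and 10 in K5/K14 tumours, and the block changed no call of a member. It took the calls of Cers1 in Ivl and in K5/K14 tumours (adjusted p = 0.0879 and 0.065), of Cyp4f14 (0.139) and Gata3 (0.0745) in Ivl tumours and of Tchh (0.0623) and Alox8 (0.108) in K5/K14 tumours. With only the groups compared, Cers1 (0.0521), Cyp4f14 (0.0605) and Gata3 (0.0776) did not pass in Ivl tumours. The gene Ivl no longer passed between the tumour classes with the block (adjusted p = 0.0991) or with only the groups compared (0.0657). Same-numbered libraries of different groups correlated at -0.503 to 0.426 in 25 pairs, and other pairs at -0.824 to 0.692. Only 2 of 19 libraries matched their own number best. The check thus gave no sign that the numbers pair the samples, but it cannot exclude a pairing too weak to show in such correlations. Over all genes the block moved the calls between Ivl and K5/K14 tumours from 566 higher and 190 lower to 33 and 13.

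Of 88 recomputed pair ratios 73 kept their side and 15 no longer passed. Leaving out 1 library gave 1.0 to 1.47 for Alox12b to Aloxe3 in Ivl tumours against skin, -1.9 to -1.16 for Tgm1 to Tgm3 in K5/K14 tumours against skin and -0.94 to -0.62 between the tumour classes. Over the 15 libraries Tgm1 to Tgm3 in Ivl tumours was -2.52 and did not pass, with fewer samples tested.

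Calls over all genes moved more than those of the members. Between Ivl and K5/K14 tumours DESeq2 gave 1376 higher and 757 lower, keratinocyte scaling 3073 and 113, the 4 libraries that stood apart as a covariate 183 and 266, and the 15 libraries 68 and 63. The lowest count on leaving out 1 library was 87 and 40, without K5 tumour 1. Ivl tumours against skin had 1020 higher and 23609 lower under keratinocyte scaling, 7101 and 10465 over the 15 libraries, and 4844 and 3102 with only these groups fitted. K5/K14 tumours had 1043 and 26440 under keratinocyte scaling. K5 against K14 gave 59 and 114 with DESeq2, 7 and 10 over the 15 libraries and 0 and 2 with only these groups fitted, against 0 and 0. The lowest count of any of the 10 genes in a library was 1727.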
